A study of Mus musculus with 8 samples.

Results

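Antibody transcripts were measured by RNA sequencing in the epididymal fat pad (eWAT, a visceral white adipose depot) of 8 male mice with obesity. The genes described are the constant genes of the immunoglobulin heavy, kappa and lambda chains and their variable (V) segments. A gene was taken when its symbol named such a segment and it reached at least 1 TPM (a transcript level scaled to transcript length and to a fixed total) in at least 1 mouse. Of 55487 genes, 361 had a matching symbol and 171 reached that level: 77 heavy V, 80 kappa V and 3 lambda V segments, 7 heavy constant genes, Igkc and 3 lambda constant genes. The members were chosen by symbol and by these levels, so their presence in the fat is a description. The members with the lowest maximum were Igkv7-33 at 1.13 TPM, Igkv4-54 at 1.18 TPM and Igkv13-85 at 1.23 TPM. Just below the threshold were Igkv1-99 at 0.99 TPM, Igkv1-88 at 0.94 TPM and Ighv1-41 at 0.87 TPM.

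All 8 mice were C57BL/6, carried Slc16a1 flox/flox and were obese from a high-fat diet (HFD). The 4 WT mice had no Cre and carry the numbers 2, 3, 4 and 5. The 4 AKO mice also carried AP2-cre, are labelled Slc16a1 -/- and have the numbers 3, 8, 9 and 11. Slc16a1 encodes the monocarboxylate transporter MCT1. The aP2 (Fabp4) promoter is active in adipocytes and is known to act in some other cells as well, including macrophages, and Cre and the deletion cannot be told apart in this design. Age was not given in the sources used here.

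An antibody is made of paired heavy and light chains, each with a variable region that binds antigen and a constant region. A developing B cell joins 1 V segment to shorter segments in front of a constant gene, and all its progeny keep that choice. The V segments found in a tissue thus show which segments its B-lineage cells use, and do not identify single clones. The heavy constant gene sets the isotype: Ighm (IgM) and Ighd (IgD) come first, and class switching puts Ighg genes (IgG), Igha (IgA) or Ighe (IgE) in their place. Plasma cells, the antibody-secreting end stage, hold far more of this RNA than resting B cells, and fat depots are known to house B-1 cells, which secrete natural IgM.

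The adipocyte markers Adipoq, Plin1, Lep, Cidec and Fabp4 summed to 26189 to 38614 TPM in WT and 27275 to 37307 TPM in AKO mice, as the tissue label says. Total Slc16a1 was 15.7 to 28.5 TPM in WT and 21.5 to 27.1 TPM in AKO mice and did not separate the groups (limma adjusted p = 0.850). The first of its 2 deposited rows was 10.8 to 17.7 TPM in WT and 4.51 to 8.80 TPM in AKO mice. The second was 12.5, 14.4, 0 and 0 TPM in WT and 13.6, 13.8, 22.5 and 19.6 TPM in AKO mice, and with the highest row in place of the sum the log2 difference was 2.24 against 0.19. The groups are therefore called by their labels throughout. Read depth is unknown, since TPM keeps none, and between 13968 and 14884 genes per mouse reached 1 TPM. Deposited rows above 0 numbered 63143 to 66466 in WT and 66578 to 70720 in AKO mice, and the part of this in the counts of segments below was not tested.

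The members together held 0.0907% to 0.415% of all TPM. Listed in the order of the mouse numbers above, as all values are, their sum was 907, 1273, 2300 and 1268 TPM for WT and 1865, 4147, 2952 and 2116 TPM for AKO. The means were 1437 ± 600 TPM (SD, n = 4) in WT and 2770 ± 1029 TPM (SD, n = 4) in AKO mice. The groups overlapped, because WT mouse 4 lay above AKO mice 3 and 11. The difference of the means was 1333 TPM, and 874 TPM without AKO mouse 8, the highest, a drop by over 1.5 times. In bulk tissue, a difference in the number of antibody-producing cells and one in RNA per cell cannot be told apart.

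Ighm, the constant gene of IgM, was the highest member when its deposited rows were summed. Its gene total was 320, 658, 977 and 1071 TPM in the WT mice and 640, 707, 760 and 897 TPM in the AKO mice. The means of 757 ± 341 TPM (SD, n = 4) and 751 ± 109 TPM (SD, n = 4) were nearly equal, and the groups overlapped fully. On the log2(TPM + 1) scale, the mean of AKO less that of WT (the log2 difference) was 0.12 (SE 0.35, limma adjusted p = 0.946), and it was -0.24 without WT mouse 2.

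The total of Ighm did not follow the other B-lineage genes. The deposited tables give Ighm 12 rows, where GENCODE M21 lists 2 transcripts, and the rows are not named. WT mouse 5 had the highest level in 8 of the 12 rows, yet it had the lowest Igkc, the kappa constant gene, and the lowest Jchain, the joining chain of secreted IgM and IgA. Row 5 was the only row with its lowest level in WT mouse 5. It was 33.1, 45.99, 88.7 and 27.0 TPM in the WT mice and 75.6, 116, 133 and 77.2 TPM in the AKO mice, and held 2.52% to 17.5% of the gene's total. Its ratio to Igkc ran from 0.176 to 0.637, while that of the other 11 rows together ran from 0.897 to 24.7. Row 5 alone thus lay below Igkc in every mouse. What the other rows measure was not tested. Isotype shares and the heavy V to constant ratio are therefore given with all rows and with row 5 alone, a choice made after the values were seen. The member sum and the log2 difference of Ighm above rest on all rows. Without Ighm the members summed to 587, 615, 1323 and 197 TPM in WT and 1224, 3440, 2192 and 1218 TPM in AKO mice. The means were 680 ± 469 TPM (SD, n = 4) and 2019 ± 1052 TPM (SD, n = 4), and the groups again overlapped.

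**Figure D1:**
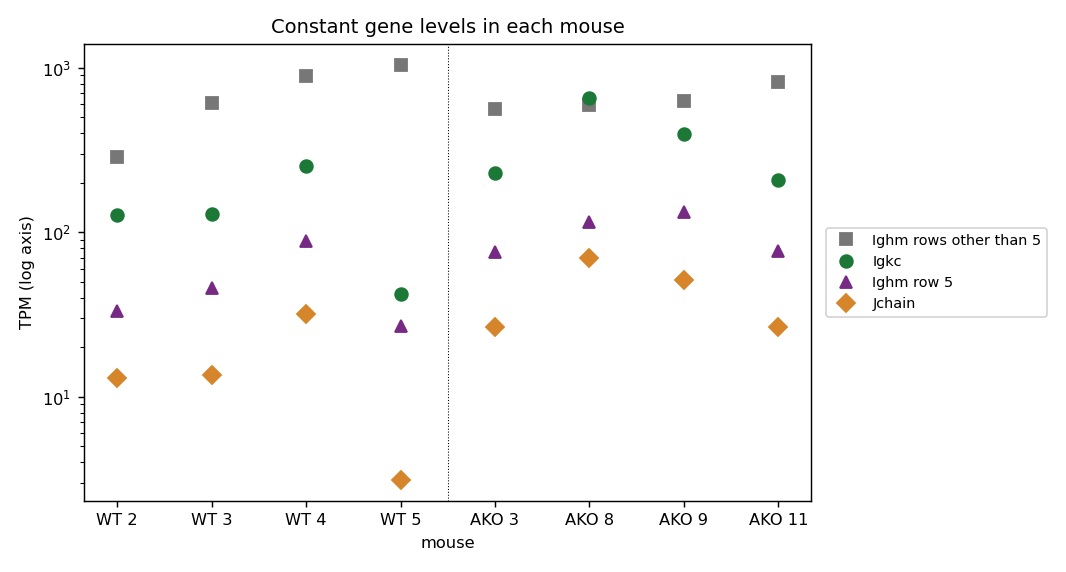
TPM (log axis) of Igkc, Jchain, row 5 of Ighm and the sum of the other 11 rows of Ighm in each of the 8 mice, 1 point per mouse. The other rows are highest in WT mouse 5 at 1044 TPM, where Igkc at 42.4 TPM and row 5 at 27.0 TPM are lowest.

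Igkc encodes the constant region of the kappa light chain, which most mouse antibodies carry. It was 127, 128, 254 and 42.4 TPM in WT and 229, 659, 395 and 207 TPM in AKO mice. Only WT mouse 4 reached into the AKO range. The means were 138 ± 87.2 TPM (SD, n = 4) and 373 ± 208 TPM (SD, n = 4), and the log2 difference of 1.52 (SE 0.55) did not pass the test (limma adjusted p = 0.831). Jchain, which is no member, was 13.0, 13.5, 31.7 and 3.11 TPM in WT and 26.6, 69.2, 51.1 and 26.6 TPM in AKO mice (log2 difference 1.67, limma adjusted p = 0.831). Its ratio to Igkc stayed between 0.0734 and 0.129 in the 8 mice.

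Lambda light chains are the minor class in mice, and their constant genes were at lower levels. Iglc2 was 6.86, 7.02, 3.71 and 3.24 TPM in WT and 10.5, 21.9, 61.1 and 52.5 TPM in AKO mice. All 4 AKO values lay above all WT values, and the log2 difference was 2.36 (SE 0.52, limma adjusted p = 0.714). Iglc3 was 0.69, 1.48, 0.77 and 0.72 TPM in WT and 2.76, 4.31, 2.71 and 2.69 TPM in AKO mice. Its groups did not overlap either, and the log2 difference was 1.11 (SE 0.18, limma adjusted p = 0.317). Iglc1 was 0, 1.22, 1.5 and 0.87 TPM in WT and 3.03, 0, 0 and 1.87 TPM in AKO mice, with no order between the groups (log2 difference 0.04, limma adjusted p = 0.989). Summed, the lambda constant genes averaged 7.02 ± 2.12 TPM (SD, n = 4) in WT and 40.8 ± 23.2 TPM (SD, n = 4) in AKO mice. Their share of light constant TPM was 5.62%, 7.03%, 2.30% and 10.2% in WT and 6.63%, 3.82%, 13.9% and 21.6% in AKO mice, and on this scale the groups overlapped.

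Iglc2 and Iglc3 are near copies, so reads could be split between them, and the level of either alone is uncertain. Over 300 coding bases they differ at 11, marked in capitals, an identity of 96.3%, with a longest shared run of 79 bases. The stretches lie on the minus strand of chromosome 16 in GRCm38 (GENCODE M21), at chr16:19065368-19065667 in Iglc3 and at chr16:19198539-19198838 in Iglc2, in coding exons, and both are written 5′ to 3′.
Iglc3: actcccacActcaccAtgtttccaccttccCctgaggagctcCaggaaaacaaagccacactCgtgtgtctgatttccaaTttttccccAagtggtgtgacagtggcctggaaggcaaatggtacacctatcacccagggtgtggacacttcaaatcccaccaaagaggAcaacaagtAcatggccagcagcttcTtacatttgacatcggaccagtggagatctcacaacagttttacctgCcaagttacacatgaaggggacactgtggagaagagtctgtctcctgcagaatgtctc
Iglc2: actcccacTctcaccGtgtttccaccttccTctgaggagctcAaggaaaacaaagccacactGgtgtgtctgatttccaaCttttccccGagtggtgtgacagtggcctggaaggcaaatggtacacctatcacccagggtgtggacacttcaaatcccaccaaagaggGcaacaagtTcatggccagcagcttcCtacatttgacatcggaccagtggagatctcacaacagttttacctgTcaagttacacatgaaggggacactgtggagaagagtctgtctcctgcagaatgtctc

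The levels of the switched isotypes varied from mouse to mouse, and the groups overlapped for each of these genes. Igha, the constant gene of IgA, was 19.4, 6.18, 36.4 and 4.77 TPM in WT and 6.12, 134, 34.0 and 10.6 TPM in AKO mice. Apart from AKO mouse 8 the 2 ranges were alike, and the log2 difference of 0.91 (limma adjusted p = 0.869) was 0.10 without that mouse. Ighg2b was 0.63, 0.86, 2.45 and 0.30 TPM in WT and 1.23, 9.78, 3.60 and 30.5 TPM in AKO mice, highest in AKO mouse 11 (log2 difference 2.00, limma adjusted p = 0.831, and 1.32 without that mouse). Ighg3 was 0.03, 0.66, 1.66 and 0 TPM in WT and 1.08, 42.9, 4.03 and 0.17 TPM in AKO mice, highest in AKO mouse 8 (log2 difference 1.72, limma adjusted p = 0.831, and 0.66 without that mouse). Ighg2c, the IgG2 gene that C57BL/6 mice carry in the place of Ighg2a, was 3.25, 1.43, 9.07 and 0.76 TPM in WT and 1.90, 12.8, 2.62 and 2.38 TPM in AKO mice. Its log2 difference of 0.36 (limma adjusted p = 0.920) was -0.16 without AKO mouse 8. Ighg1 was listed at 0 in 3 WT mice and at 0.14 TPM in WT mouse 3, and was 4.99, 0, 0.47 and 0.54 TPM in AKO mice, too low to be tested. Ighg1, Ighg2b and Ighg3 thus had their highest level in AKO mice 3, 11 and 8, in that order. The 4 Ighg genes summed to 3.91, 3.09, 13.2 and 1.06 TPM in WT and 9.20, 65.5, 10.7 and 33.6 TPM in AKO mice.

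Ighd, the constant gene of IgD on resting B cells, spanned the narrowest range, in fold, of the heavy constant genes. It was 2.34, 3.39, 2.36 and 2.85 TPM in WT and 2.71, 2.74, 2.95 and 3.53 TPM in AKO mice (log2 difference 0.10, limma adjusted p = 0.900). Ighe, the constant gene of IgE, and Iglc4 were listed at 0 in all 8 mice and are no members.

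As a share of heavy constant TPM, Ighm with all rows took 92.6%, 98.1%, 94.96% and 99.2% in WT and 97.3%, 77.8%, 94.1% and 94.9% in AKO mice. With row 5 alone the shares of Ighm were 56.4%, 78.4%, 63.1% and 75.7% in WT and 80.7%, 36.5%, 73.6% and 61.8% in AKO mice. Igha followed, with 33.0%, 10.5%, 25.9% and 13.4% in WT and 6.53%, 42.1%, 18.8% and 8.48% in AKO mice. IgM was thus the first isotype in 8 of 8 mice with all rows. The row 5 shares set 1 row of Ighm against all rows of the other genes, so they are not like for like. On that measure IgM was first in all but AKO mouse 8, where Igha was first. There the 6 Igha rows summed to 134 TPM, the highest of them at 60.4 TPM, against 116 TPM for row 5 of Ighm. In AKO mouse 11 the second isotype by row 5 was Ighg2b at 24.4%, and in AKO mouse 8 Ighg3 held 13.5%. Among the switched genes alone, which does not depend on Ighm, Igha held 24.0% to 83.2%. Ighg2c held 14.0%, 15.4%, 18.3% and 13.0% in WT and 12.4%, 6.45%, 5.86% and 5.38% in AKO mice, below every WT mouse.

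**Figure D2:**
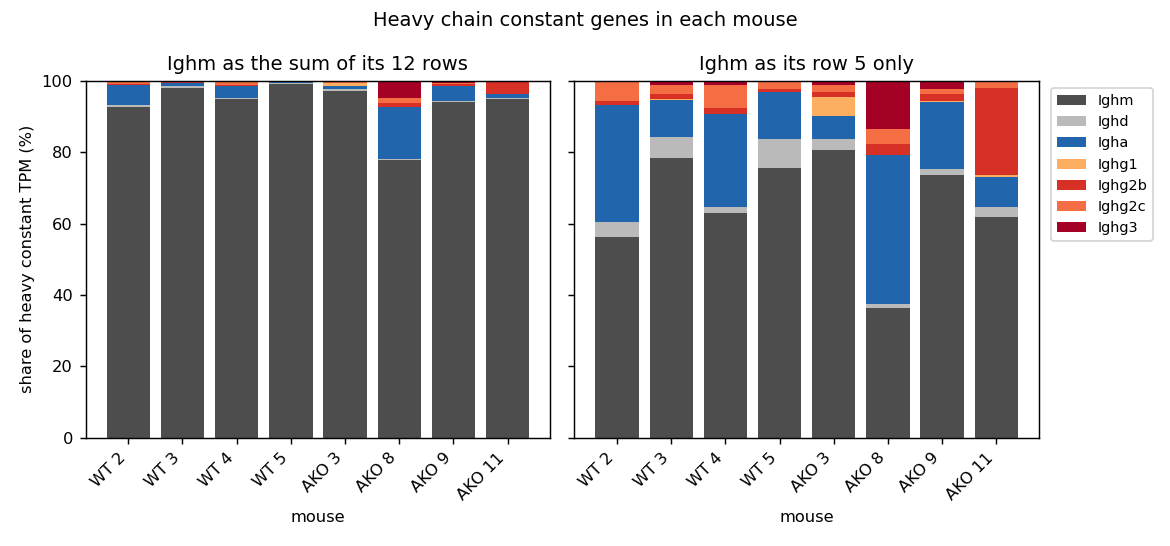
Percent of heavy constant TPM held by each heavy constant gene, as 1 stacked bar from 0 to 100% for each mouse, with all rows of Ighm and with row 5 alone. The other genes are shown with all their rows in both. With all rows Ighm holds 77.8% to 99.2%, and with row 5 it holds 36.5% to 80.7%, with Igha second in most mice.

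A rearranged transcript carries 1 V and 1 constant region, so the TPM of V segments and of constant genes were set against each other. What moves their ratio was not tested. Kappa V over Igkc was 2.25, 2.17, 2.66 and 2.42 in WT and 2.88, 2.48, 2.63 and 2.52 in AKO mice. This ratio was stable from mouse to mouse and above 1. Heavy V over heavy constant TPM ran from 0.0316 in WT mouse 5 to 0.869 in AKO mouse 8 with all rows of Ighm. With row 5 alone it was 2.09, 2.72, 2.31 and 0.957 in WT and 3.10, 2.48, 2.79 and 2.65 in AKO mice, near the kappa ratio in all but WT mouse 5. Kappa V exceeded heavy V by 1.58 to 3.0 times.

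The most abundant V segments were Igkv14-126 in the kappa locus and Ighv11-2 in the heavy locus. Together they are known as the classical pair of B-1 cell antibodies that bind phosphatidylcholine. Igkv14-126 was 63.7, 74.5, 64.1 and 39.8 TPM in WT and 225, 173, 124 and 29.1 TPM in AKO mice (log2 difference 0.88, SE 0.57, limma adjusted p = 0.831). Ighv11-2 was 29.3, 36.5, 39.9 and 15.1 TPM in WT and 121, 78.6, 58.8 and 13.1 TPM in AKO mice (log2 difference 0.86, SE 0.62, limma adjusted p = 0.831). For both, 3 AKO mice lay above every WT mouse and AKO mouse 11 lay below every WT mouse. Without AKO mouse 11 the log2 differences were both 1.5. The ratio of Ighv11-2 to Igkv14-126 stayed between 0.380 and 0.622.

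A second kappa segment, Igkv14-111, was 18.7, 28.2, 29.4 and 12.2 TPM in WT and 89.6, 91.6, 45.6 and 9.84 TPM in AKO mice, 0.294 to 0.528 times Igkv14-126. Its log2 difference was 1.05 (limma adjusted p = 0.831), and 1.74 without AKO mouse 11. Igkv14-111 and Igkv14-126 are shown because they ordered the mice much alike and are related in sequence. Over 298 coding bases they differ at 27, in capitals, an identity of 90.9%, and the longest run they share is 44 bases. Whether reads of one were assigned to the other was not tested. The stretches are on the plus strand of chromosome 6 in GRCm38 (GENCODE M21), at chr6:67896345-67896642 and chr6:68256572-68256869.
Igkv14-126: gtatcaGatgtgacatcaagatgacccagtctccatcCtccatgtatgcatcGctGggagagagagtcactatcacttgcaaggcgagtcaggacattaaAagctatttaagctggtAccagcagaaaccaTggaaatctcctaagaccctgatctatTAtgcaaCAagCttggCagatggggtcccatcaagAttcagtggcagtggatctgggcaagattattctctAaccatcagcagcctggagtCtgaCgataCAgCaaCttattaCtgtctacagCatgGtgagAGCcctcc
Igkv14-111: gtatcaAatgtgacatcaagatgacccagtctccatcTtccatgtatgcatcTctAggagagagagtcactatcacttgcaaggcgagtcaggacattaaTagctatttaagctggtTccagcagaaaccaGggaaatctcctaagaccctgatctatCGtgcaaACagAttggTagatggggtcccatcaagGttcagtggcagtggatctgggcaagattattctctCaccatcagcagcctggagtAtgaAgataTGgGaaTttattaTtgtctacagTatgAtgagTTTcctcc

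Ighv11-2 has a closer copy, Ighv11-1, which did not share its level: it was 0.70 TPM in WT mouse 2 and listed at 0 in the other 7 mice. Over 300 coding bases the copies differ at 4, in capitals, an identity of 98.7%, with a longest shared run of 162 bases. Both are on the minus strand of chromosome 12 in GRCm38 (GENCODE M21), Ighv11-2 at chr12:114048241-114048540 and Ighv11-1 at chr12:113981879-113982178.
Ighv11-2: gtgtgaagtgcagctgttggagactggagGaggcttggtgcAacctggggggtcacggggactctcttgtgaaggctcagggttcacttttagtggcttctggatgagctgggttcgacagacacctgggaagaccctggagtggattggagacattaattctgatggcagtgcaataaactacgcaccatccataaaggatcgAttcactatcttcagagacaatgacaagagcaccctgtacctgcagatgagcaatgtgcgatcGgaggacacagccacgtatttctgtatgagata
Ighv11-1: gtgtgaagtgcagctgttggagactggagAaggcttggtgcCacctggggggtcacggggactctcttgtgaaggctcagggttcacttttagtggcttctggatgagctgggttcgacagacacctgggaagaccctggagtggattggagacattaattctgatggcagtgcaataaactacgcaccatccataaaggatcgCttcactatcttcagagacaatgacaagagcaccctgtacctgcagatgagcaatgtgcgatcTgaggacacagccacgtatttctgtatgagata

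Of the second known phosphatidylcholine-binding pair, Ighv12-3 was 3.43, 1.74, 0.78 and 0 TPM in WT and 0, 0, 3.63 and 0 TPM in AKO mice. Igkv4-91 was 10.5, 3.34, 0.75 and 2.10 TPM in WT and 12.3, 59.6, 25.5 and 1.53 TPM in AKO mice. These 2 segments did not order the mice alike. They were named for their known pairing after their values had been seen.

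The V total was spread over many segments in most mice, and over few in WT mouse 5 and AKO mouse 3. Heavy V segments at 1 TPM or more numbered 23, 30, 35 and 8 in WT and 31, 53, 53 and 48 in AKO mice. Of heavy V TPM, 50% was held by 6, 5, 6 and 2 segments in WT and by 2, 7, 8 and 9 in AKO mice. To reach 90% took 21, 24, 24 and 10 segments in WT and 18, 30, 32 and 32 in AKO mice. The inverse Simpson number, which counts segments weighted by their evenness, was 11.5, 11.5, 16.5 and 4.43 in WT and 5.20, 19.2, 20.8 and 22.3 in AKO mice. AKO mice 8, 9 and 11 were thus above every WT mouse on all 4 measures, while AKO mouse 3 was low on the last 3. The heavy V sum of AKO mice 8, 9 and 11, at 789, 504 and 331 TPM, was also above that of every WT mouse, at most 325 TPM. The part of this sum in the measures was not tested. Of the heavy V members, 9 reached 1 TPM in 1 AKO mouse alone and 5 in 1 WT mouse alone, so the members were chosen in part by the AKO levels.

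**Figure D3:**
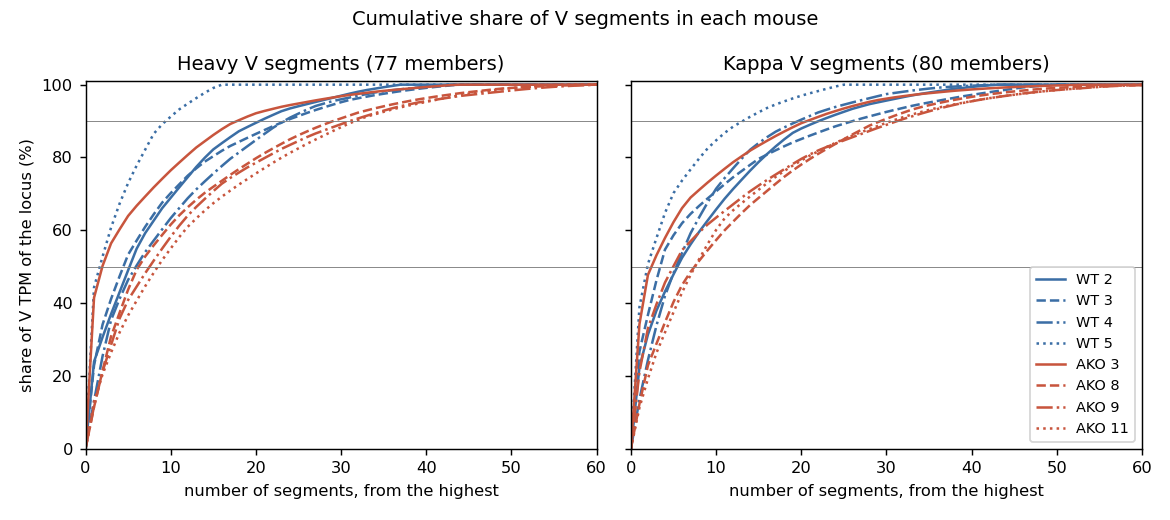
Cumulative percent of heavy V and kappa V TPM against the rank of the segment within each mouse, 1 line per mouse, for segments ordered from the highest down. The lines of WT mouse 5 and AKO mouse 3 climb first, with 2 heavy V segments for 50%. Those of AKO mice 8, 9 and 11 climb last for heavy V, with 7 to 9, while for kappa V AKO mouse 9 reaches 50% with 5 segments, before WT mice 2 and 4 with 6.

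The highest heavy V segment was Ighv11-2 in AKO mice 3 and 9 (41.5% and 11.7% of heavy V TPM) and, among WT mice, in numbers 2, 3 and 5 (23.9%, 22.9% and 44.3%). In the other 3 mice it was Ighv1-64 (13.1%, WT mouse 4), Ighv1-34 (11.4%, AKO mouse 8) and Ighv9-3 (12.9%, AKO mouse 11). The Ighv1 family, the largest with 40 members, held 29.5% to 58.2% of heavy V TPM, and Ighv11-2 alone held 3.95% to 44.3%. The share of Ighv11-2 was thus lowest in AKO mouse 11 and highest in WT mouse 5, the mouse with the least heavy V RNA in all, 34.2 TPM.

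Kappa V segments followed the same order in part. Those at 1 TPM or more numbered 36, 41, 37 and 16 in WT and 41, 57, 57 and 52 in AKO mice, so that AKO mouse 3 and WT mouse 3 were level. To reach 90% of kappa V TPM took 23, 27, 20 and 14 segments in WT and 21, 30, 32 and 31 in AKO mice. For 50% it took 6, 4, 6 and 2 segments in WT and 3, 8, 5 and 8 in AKO mice, and the inverse Simpson number was 12.5, 9.5, 15.3 and 5.43 in WT and 6.73, 20.4, 13.0 and 21.7 in AKO mice. On these measures AKO mice 8 and 11 were above every WT mouse and AKO mouse 9 was not. Listed at 0 were 37, 30, 37 and 55 of the 80 kappa V members in WT and 27, 16, 17 and 20 in AKO mice. A segment became a member through 1 mouse at 1 TPM, which for 10 kappa segments was an AKO mouse alone and for 3 a WT mouse alone, so these counts describe members chosen in part by the AKO levels. Igkv14-126 was the highest kappa V segment in AKO mouse 3 (34.2%) and, among WT mice, in numbers 2, 3 and 5 (22.4%, 26.7% and 38.9%). Igkv10-96 led in WT mouse 4 (13.5%) and AKO mouse 8 (12.3%), Igkv8-28 in AKO mouse 9 (21.1%) and Igkv1-117 in AKO mouse 11 (11.3%). The Igkv14 family held 8.25% to 50.8% of kappa V TPM, Igkv4 with 20 members 7.68% to 22.1%, and Igkv8 0.625% to 24.5%.

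V segments were shared unevenly among the mice. Of the 160, 86 reached 1 TPM in at least 4 mice, and 10 reached 1 TPM in all 8 mice: Ighv11-2, Ighv1-34, Ighv1-64, Igkv14-126, Igkv14-111, Igkv1-117, Igkv3-2, Igkv3-12, Igkv6-17 and Iglv1. Another 27 reached it in 1 mouse only, 19 of them in an AKO mouse and 8 in a WT mouse. In 83 of the 160, a single mouse held over 50% of the sum over the 8 mice. That mouse was AKO mouse 8 for 27, AKO mouse 9 for 19, AKO mouse 11 for 12, AKO mouse 3 for 10 and a WT mouse for the other 15. Many of these segments were low, and 37 of the 83 reached 10 TPM. These were 20 of the 27 in AKO mouse 8, 8 of the 19 in AKO mouse 9, and 2 each in AKO mice 11 and 3. Examples in AKO mouse 8 were Ighv5-9 at 74.6 TPM (94.7% of its sum), Igkv4-74 at 97.1 TPM and Ighv1-34 at 90.4 TPM (72.5%). In AKO mouse 9, Igkv8-28 was 219 TPM (71.4% of its sum). These examples were chosen after their values had been seen.

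Several abundant segments were at uneven levels within both groups. Igkv1-117 was 25.7, 9.20, 73.2 and 7.07 TPM in WT and 25.4, 96.2, 68.4 and 59.1 TPM in AKO mice, with WT mouse 4 inside the AKO range. Igkv10-96 was 7.16, 0, 91.6 and 1.39 TPM in WT and 8.10, 202, 16.1 and 21.7 TPM in AKO mice, high in WT mouse 4 and AKO mouse 8. The lambda segment Iglv1 was 5.23, 19.0, 9.75 and 3.14 TPM in WT and 7.47, 112, 120 and 20.7 TPM in AKO mice. AKO mice 8 and 9 stood far above the rest (log2 difference 2.21, limma adjusted p = 0.831). Igkv3-2 was 13.0, 26.5, 37.3 and 3.53 TPM in WT and 35.4, 75.7, 46.6 and 25.2 TPM in AKO mice. Igkv6-17 was 8.86, 4.76, 42.5 and 5.57 TPM in WT and 19.1, 49.4, 62.1 and 29.3 TPM in AKO mice. In both kappa segments WT mouse 4 alone, or with WT mouse 3, reached into the AKO range.

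**Figure D4:**
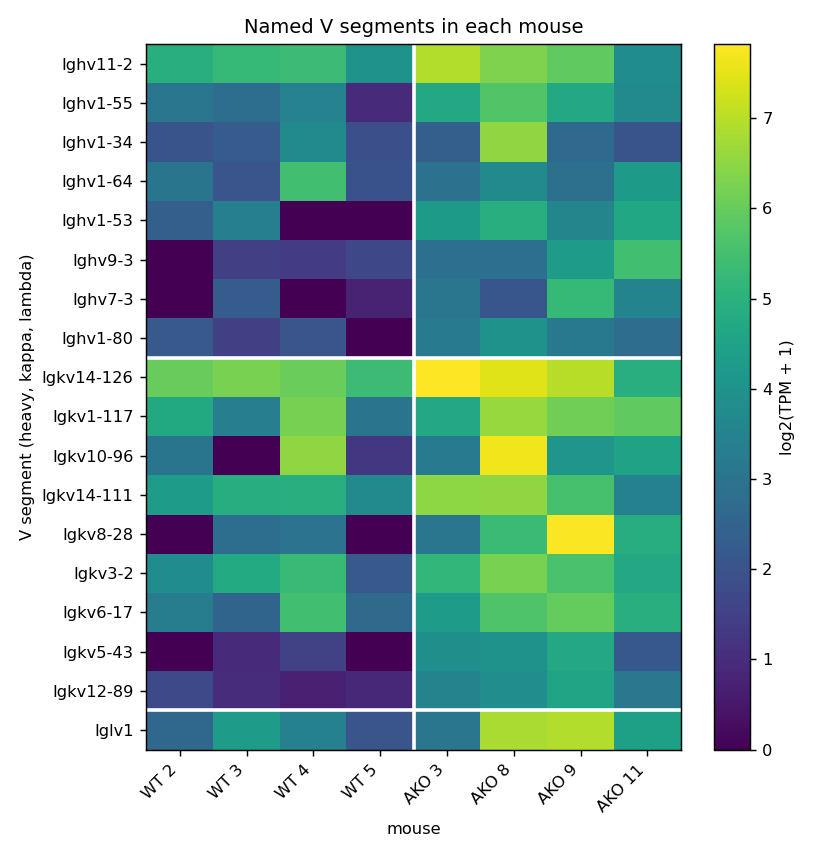
Level on the log2(TPM + 1) scale (color) of the V segments with the highest mean, the highest share in a mouse or the smallest p, 1 row per segment and 1 column per mouse. Igkv14-126 and Ighv11-2 are high in every mouse but lowest in AKO mouse 11 at 29.1 and 13.1 TPM, while segments such as Igkv8-28 are high in 1 mouse.

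The comparison of AKO with WT asks how adipose antibody RNA differs with the AP2-cre deletion of Slc16a1. Over all members, mean levels were above those of WT for most of the tested genes, but no single member passed the test. Of the 171 members, 96 reached 1 TPM in at least 4 mice and were tested among 14172 genes, and 0 were called at an adjusted p (FDR) under 0.05 by limma. Of all genes tested, 0.0212% were called higher and 0.00706% lower, 0.0282% in all. At an unadjusted p under 0.05, 28 of the 96 members were higher and 0 were lower in AKO mice, beside 2.58% of all genes higher and 4.75% in either direction. The members were measured in the same mice and can come from the same cells, so these are not 28 separate results. The log2 difference was above 0 for 91 of the 96 and below 0 for 5, beside 53.8% of all genes above 0. The median log2 difference was 1.21 over the tested members and 0.02 over all genes tested.

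The classes did so unequally. The median log2 difference was 1.02 over 36 heavy V, 1.45 over 47 kappa V, 2.21 over 3 lambda V, 0.63 over 6 heavy constant and 1.11 over 3 lambda constant genes. The filter bears on this, since 24 of the tested members would have missed it on the WT mice alone, with fewer than 2 of 4 at 1 TPM, and 0 on the AKO mice alone. The 24 include Igkv12-89, Iglc3 and Igkv5-43, the members with the smallest adjusted p, each with 1 WT mouse at 1 TPM. For this reason the counts describe the members that passed and support no call. The sum over all 160 V members does not pass through that filter, but it does rest on the member threshold of 1 TPM in 1 mouse. It was 427, 464, 1011 and 141 TPM in WT and 961, 2553, 1685 and 906 TPM in AKO mice. WT mouse 4 lay above AKO mice 3 and 11. The means were 511 ± 364 TPM (SD, n = 4) and 1526 ± 771 TPM (SD, n = 4), a difference of 1016 TPM, and of 673 TPM without AKO mouse 8.

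**Figure D5:**
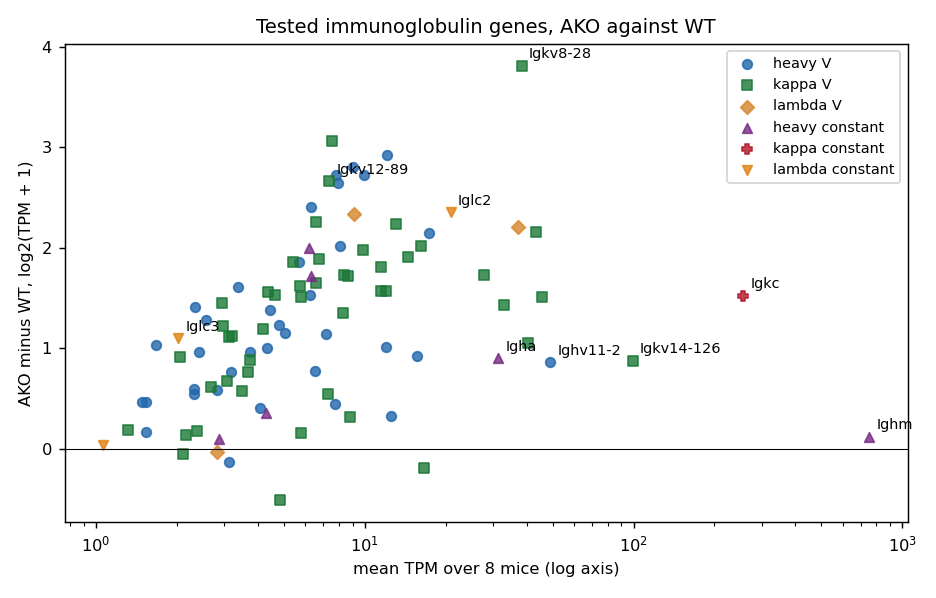
AKO minus WT difference on the log2(TPM + 1) scale for each tested member against its mean level, colored by class. Of the 96 points, 91 lie above 0, and none is past the adjusted p of 0.05 over all genes.

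In 11 tested members the 4 AKO values lay above all 4 WT values, and in 0 they lay below, beside 1.11% and 1.33% of all genes tested. Leaving out any mouse makes separation easier for every gene. The count of 11 was 23 without WT mouse 4 (1.98% of all genes), 22 without AKO mouse 3 (1.86%) and 17 without AKO mouse 11 (4.13%). The 11 were Iglc2, Iglc3, Igkv12-89, Igkv5-43, Igkv8-28, Ighv9-3, Ighv1-53, Ighv1-55, Ighv1-80, Ighv6-3 and Ighv1-82. For 6 of the 9 V segments among them, another V segment is at least 95% identical, so the level of either copy is uncertain.

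Igkv12-89 had the smallest adjusted p of all members. This kappa segment was 2.34, 0.99, 0.66 and 0.87 TPM in WT and 10.4, 13.3, 22.6 and 7.71 TPM in AKO mice. With 1 WT mouse at 1 TPM, it passed the filter for testing only through the AKO mice, where it was high. The lowest AKO mouse was above the highest WT mouse by more than the whole WT range, with a log2 difference of 2.67 (SE 0.33, limma adjusted p = 0.0722), which missed the threshold. The limma adjusted p depended on the processing. It was 0.0588 with a pseudocount of 0.1, 0.248 with the highest row per gene and 0.338 with no filter. With each mouse left out, the segment had a limma adjusted p of 0.0734 to 0.375. Its sequence is shown because its nearest segment, Igkv12-46, is well apart: over 298 coding bases they differ at 42, in capitals, an identity of 85.9%, and share no run over 33 bases. Both are on the minus strand of chromosome 6 in GRCm38 (GENCODE M21), at chr6:68834846-68835143 and chr6:69764523-69764820.
Igkv12-89: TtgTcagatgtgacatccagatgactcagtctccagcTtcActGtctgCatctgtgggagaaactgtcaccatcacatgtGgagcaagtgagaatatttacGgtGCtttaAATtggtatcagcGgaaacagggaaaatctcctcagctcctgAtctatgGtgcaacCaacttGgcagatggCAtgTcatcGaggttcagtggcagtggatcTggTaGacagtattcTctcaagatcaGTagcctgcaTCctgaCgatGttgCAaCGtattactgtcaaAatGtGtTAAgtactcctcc
Igkv12-46: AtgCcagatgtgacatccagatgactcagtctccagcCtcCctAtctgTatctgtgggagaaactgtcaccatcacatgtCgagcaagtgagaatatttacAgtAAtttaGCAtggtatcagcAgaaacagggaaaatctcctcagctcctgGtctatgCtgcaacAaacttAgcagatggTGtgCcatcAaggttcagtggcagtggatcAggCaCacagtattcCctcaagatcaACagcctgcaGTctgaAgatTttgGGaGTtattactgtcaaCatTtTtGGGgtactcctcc

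Igkv5-43 was 0, 0.94, 1.87 and 0 TPM in WT and 13.8, 14.9, 25.2 and 3.43 TPM in AKO mice (log2 difference 3.07, limma adjusted p = 0.466). Its nearest segment, Igkv5-45, is 98.6% identical. Ighv9-3 was 0, 1.77, 1.59 and 2.24 TPM in WT and 6.21, 6.19, 18.5 and 42.8 TPM in AKO mice (log2 difference 2.72, limma adjusted p = 0.756). Igkv8-28 was 0, 6.09, 6.86 and 0 TPM in WT and 7.37, 39.1, 219 and 28.3 TPM in AKO mice (log2 difference 3.81, limma adjusted p = 0.831), and its lowest AKO value was close to the highest WT value. Ighv1-55 was 7.35, 6.15, 10.1 and 0.90 TPM in WT and 25.4, 51.4, 25.6 and 12.3 TPM in AKO mice (log2 difference 2.15, limma adjusted p = 0.831). Ighv1-53 was 4.2, 9.46, 0 and 0 TPM in WT and 18.0, 28.9, 11.1 and 24.9 TPM in AKO mice. AKO mouse 9 was only a little above WT mouse 3. Ighv1-80 was 3.5, 1.77, 3.18 and 0 TPM in WT and 8.08, 15.0, 8.02 and 5.96 TPM in AKO mice. Ighv6-3 was 0, 1.13, 1.52 and 0.71 TPM in WT and 5.94, 24.2, 15.3 and 1.56 TPM in AKO mice, and Ighv1-82 also separated the groups by a narrow gap, 6.49 TPM in the highest WT and 7.35 TPM in the lowest AKO mouse. Ighv7-3 was 0, 3.8, 0 and 0.68 TPM in WT and 7.39, 3.3, 36.6 and 10.4 TPM in AKO mice, and its groups overlapped through AKO mouse 8 (log2 difference 2.73, limma adjusted p = 0.831). The 5 tested members below 0 were Igkv16-104 at -0.51, Igkv8-27 at -0.19, Ighv5-16 at -0.13, Igkv8-19 at -0.05 and Iglv3 at -0.03 on the log2 scale, each with overlapping groups.

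Genes that make, carry or bind antibodies were read from lists chosen with earlier results of these data known. Of 77 listed genes, 45 were tested and 0 were called by limma, with a smallest adjusted p of 0.831. At an unadjusted limma p under 0.05, 4 were higher and 1 lower, beside 2.58% of all genes higher and 4.75% in either direction. The log2 difference was above 0 for 35 of the 45, beside 53.8% of all genes, the share to set beside each list below. Of the plasma cell list 18 of 20 were tested, 15 with a difference above 0, and the median log2 difference was 0.19. Mzb1, a chaperone of antibody assembly in the endoplasmic reticulum, was 1.02, 0.95, 2.25 and 0.10 TPM in WT and 1.65, 5.02, 3.43 and 1.57 TPM in AKO mice (log2 difference 0.92, limma adjusted p = 0.831). It ordered the mice much as Jchain did. Prdm1, which encodes the plasma cell regulator Blimp-1, was 1.42 to 2.41 TPM in WT and 2.20 to 3.99 TPM in AKO mice.

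Of the B cell list 12 of 22 were tested, 10 with a difference above 0, with a median log2 difference of 0.32. Cd79a, which carries the signal of the B cell receptor, was 1.31, 1.66, 1.70 and 1.07 TPM in WT and 1.62, 3.28, 2.34 and 3.65 TPM in AKO mice (log2 difference 0.59, limma adjusted p = 0.831), with AKO mouse 3 inside the WT range. Ms4a1, a defining gene of B cells that encodes CD20, stayed under 1 TPM in all 8 mice, at most 0.88 TPM. As a sum, the 5 B cell markers were 3.85 to 6.92 TPM in WT and 7.04 to 10.4 TPM in AKO mice, and 2 of the 5 reached 1 TPM. Ebf1, an early B cell factor that fat cells and their precursors also express, was 25.3 to 41.6 TPM in WT and 22.6 to 28.2 TPM in AKO mice.

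Of 10 recombination and switching genes only Bcl6 and Ung were tested, both with a difference below 0 (-0.40 and -0.24 on the log2 scale). Of 12 receptors and transporters of antibodies 7 were tested, 6 with a difference above 0, and the median log2 difference was 0.49. Fcgr3, an activating IgG receptor of macrophages, was 81.7 to 236 TPM in WT and 163 to 313 TPM in AKO mice. Fcgrt, the receptor that recycles IgG, was 177 to 290 TPM in WT and 211 to 267 TPM in AKO mice, and Pigr, which carries IgA and IgM across epithelia, was at most 0.11 TPM. Of 13 survival and homing factors 6 were tested, with a median log2 difference of 0.16. Tnfsf13b, which encodes the B cell survival factor BAFF, was 1.45 to 2.67 TPM in WT and 2.27 to 3.48 TPM in AKO mice.

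Markers of other cells were read beside these levels. The 5 macrophage markers summed to 1719 to 3952 TPM in WT and 2670 to 4697 TPM in AKO mice, and the 6 T cell markers to 9.89 to 15.6 TPM and 13.3 to 26.1 TPM, highest in AKO mouse 8. Lymph node markers summed to 12.4 to 55.9 TPM in WT and 15.0 to 38.1 TPM in AKO mice. Of them, Ccl21a was 8.84 to 45.79 TPM in WT and 6.83 to 30.35 TPM in AKO mice. Ccl19 was 2.98 to 10.85 TPM in WT and 2.78 to 8.66 TPM in AKO mice. Cxcl13 was 0.42 to 3.30 TPM in WT and 0.79 to 4.43 TPM in AKO mice. Glycam1, Madcam1 and Cr2 stayed under 1 TPM in all 8 mice. In AKO mouse 8, with the highest antibody RNA, the lymph node sum was 15.0 TPM and Cxcl13 was at its highest, 4.43 TPM. The lymph node sum was highest in WT mouse 3. The part of these cells in the antibody levels was not tested.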

How the data were processed

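RNA of the 8 fat pads was sequenced, per the labels' protocols, from Trizol extracts with an Illumina TruSeq RNA kit. The deposited values are TPM, made by the authors, 1 table per mouse with 152298 rows that sum to 1000000 within rounding. HISAT2, DESeq2 and mm9 appear, with no role, per the submitters' processing notes. Quantifier and annotation: not given in the sources used here. Since TPM holds no read depth, no counting interval is given.

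Rows were summed per gene identifier, 55141 of 55487 with a symbol, and 401 rows without one were left out of the tests. limma 3.58.1 (R 4.3.3) with a mean-variance trend was fitted to log2(TPM + 1) of genes that reached 1 TPM in 4 or more mice, with Benjamini-Hochberg adjustment over all 14172 genes. Differences are AKO minus WT on that scale, which understates changes of low genes. The fit was tested on simulated data. Values are mean ± SD over 4 mice. The labels and design text describe separate mice, but nothing gives litter or batch. Named were all constant genes, the 10 V segments with the highest mean, up to 8 tested members with the smallest p in each direction, the highest segment of each mouse, and up to 4 genes per list with set marker genes, of which 1 is not reported here. The members and lists were chosen with earlier results of these data known. Alternatives were a pseudocount of 0.1, no filter, median-ratio scaling, the highest row of each gene, other member thresholds, an exact permutation test, each mouse left out, and row 5 of Ighm, added after the values were seen. Sequences are coding sequences from GENCODE M21 (GRCm38), not the files' build, used for sequence and identity only.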

Additional observations from a re-analysis of the deposited data

Results flagged for a closer look

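Within a group of 4 mice, a sample was marked when its gap to the nearest other mouse took up a larger part of the group's range than Dixon's 95% critical value. Gap and range were taken on the log2(TPM + 1) scale for gene levels and sums, and on the values themselves for shares, ratios and counts. The rule marked 17 of 206 groups of values, 8.25%, and 7 of the 17 were in AKO mouse 8. The groups overlap, since levels, sums and shares draw on the same genes, and some segments were named for a high share in 1 mouse. The 5% that chance marks among independent groups is therefore no measure for this count. In AKO mouse 8, Ighg2c was 12.84 TPM, Iglc3 4.31 TPM and Ighv1-34 90.36 TPM, all above the other AKO mice. Of heavy constant TPM with all rows of Ighm, that mouse had 77.8% Ighm, 4.72% Ighg3 and 1.41% Ighg2c, and with row 5 alone 13.5% Ighg3. In AKO mouse 11, Tnfsf13, which encodes the survival factor APRIL, was low at 3.53 TPM against 9.13 to 10.39 TPM in the other AKO mice, and Ighg2b held 24.4% with row 5. In AKO mouse 3, Ighg1 held 0.758% with all rows and 5.33% with row 5, Ighv11-2 held 41.5% of heavy V TPM, and 18 segments made 90% of it against 30 to 32 in the other AKO mice. In WT mouse 3, Iglc3 was 1.48 TPM, and Ighg1, listed at 0 in the other WT mice, was 0.14 TPM, a share of 0.0209% with all rows and 0.239% with row 5.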

How the results depend on the processing

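No member was called higher or lower under any alternative run. Over all genes tested, 5 were called higher with a pseudocount of 0.1 against 3, and leaving out each mouse gave 1 to 3 higher and 0 to 2 lower. The members whose AKO values all lay above WT numbered 11 to 23 with each mouse left out, beside 1.63% to 7.06% of all genes. The summed difference of all members was 874 to 1634 TPM, and that of V segments 673 to 1222 TPM, with each mouse left out. With row 5 of Ighm alone, beside all rows of the other genes, the mean share of Ighm was 65.8% against 93.6%. That of Igha was 19.8% against 3.93%, and heavy V over constant TPM was 2.39 against 0.403 (0.823 with the highest row per gene). Of 636 comparisons of named genes, 32 changed sign, all for genes not called. With a pseudocount of 0.1 these were Iglc1 at -0.43, Igkv8-27 at 0.44, Igkv8-19 at 0.98 and Iglv3 at 0.062, and with the highest row Trim21 at -0.025 and Tnfsf13b at -0.25. With each mouse left out, log2 differences ran from -0.24 to 0.34 for Ighm, -0.34 to 0.33 for Iglc1, -0.68 to 0.44 for Ighv5-16, -0.51 to 0.68 for Iglv3, -1.25 to 0.88 for Igkv8-27, -0.059 to 1.10 for Ighv1-64, -0.039 to 0.20 for Fcgrt, -1.20 to 0.22 for Igkv16-104, -0.45 to 0.71 for Igkv8-19, -0.16 to 0.84 for Ighg2c and -0.12 to 1.38 for Ighv1-34. The cause was not tested. The exact permutation test can only return its smallest p, 0.0286, for a gene whose groups do not overlap, so it adds nothing for those genes. No paired analysis was possible because number 3 is the one number found in both groups, and it stands for different animals.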
